A study of Arabidopsis thaliana with 27 samples.

Results

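The 93 genes described here were strongly lowered 3 h after oral secretions of a caterpillar were put on a leaf wound, while water on the same kind of wound lowered them little. They were chosen by the group means of the tabulated log2 CPM values. CPM are the reads of a gene scaled to the size of its library. The tabulated values also carry an added count and a batch correction, and so do the CPM printed here for single samples, which were taken back from them. The Pb OS and Sl OS means at 3 h each lay at least 2.5 below the control mean, the wounding mean at 3 h lay less than 1 below it, and the control mean was at least 2, which left 93 of the 18899 genes of the table. On the log2 scale 2.5 is 5.66-fold. The genes were thus selected on the control samples and the 3 h samples, and those values are given as a description, without a test.

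Plants were Arabidopsis thaliana of ecotype Col-0, grown for 5 weeks with a day of 10 h and a night of 14 h. Control plants were left unwounded and were collected at the 3 h time point. In the other groups 3 leaves of each plant were pierced with 4 holes of 1 mm, and 2 μl were applied to each hole. Water was applied in the group called W here, oral secretions (OS) of the cabbage specialist Pieris brassicae in Pb OS, and OS of the generalist Spodoptera littoralis in Sl OS. Discs of leaf, 1 cm wide, were cut around the wounds after 3 h or 24 h, so each library mixes wounded and unwounded cells of several types. There were 4 samples in each group and 3 in W at 3 h, 27 in all. No control was collected at 24 h, so that the effect of treatment against control cannot be told apart there from that of the time of collection.

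Oral secretions reach a wound when a caterpillar chews, and carry compounds of the insect that a leaf perceives in addition to the cut itself. A growing leaf invests in chloroplasts, in walls that yield and extend, and in cells that copy their DNA before they divide or enlarge. Light-harvesting proteins and chlorophyll enzymes capture light, expansins and xyloglucan and pectin enzymes loosen and remodel the wall, and the minichromosome maintenance (MCM) complex unwinds DNA at replication origins. Attacked leaves are known to lower many of these growth and photosynthesis transcripts while they raise defence transcripts.

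Libraries held 22.48 M to 31.34 M reads on genes. All 5 mesophyll markers were present in these samples labelled as leaf, and none of 3 root hair and root markers was among the genes of the table. The summed mesophyll markers, RBCS1A, CA1, RCA, CAB1 and LHCB2.1, moved with the 93 genes: they lay at 43468 to 69089.5 CPM in the control samples, 38278 to 48369 with W at 3 h, 15354 to 26729 with Pb OS and 7974 to 25512 with Sl OS. The 4 epidermis markers of 5 in the table, all but PDF1, summed to 913 to 1322 CPM in the control. At 3 h they summed to 1250 to 1642 with W, 1025 to 1638 with Pb OS and 1689 to 2129 with Sl OS. The 4 guard cell markers summed to 37.0 to 53.7 CPM in the control, 45.1 to 77.7 with W, 56.0 to 98.4 with Pb OS and 64.7 to 90.3 with Sl OS. The 3 phloem markers summed to 399.9 to 543, 342 to 479, 245 to 361 and 279 to 311 CPM in that order. Markers of a type did not move alike. KAT1 lay 0.98 and 1.24 from control with Pb OS and Sl OS, FAMA 0.38 and 0.29, SLAC1 0.45 and 0.25 and MYB60 -0.34 and -0.58. SULTR2;1 lay at -1.96 and -1.72, SUC2 at -0.14 and -0.15 and APL at -0.03 and 0.13. In the epidermis, ATML1 had mean CPM of 77.0 in the control, 46.9 with W, 43.1 with Pb OS and 55.6 with Sl OS. In that order CER6 had 392, 567, 567 and 901, FDH 162, 191, 148 and 225 and LTP1 507, 678, 530 and 661. The part of these shifts in the results was not tested, and in such leaf discs fewer cells of a type and less RNA per cell cannot be told apart.

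At 3 h the 93 genes lay a median of 7.28-fold below control with Pb OS and 8.70-fold with Sl OS, and 1.61-fold with W. On the log2 scale the differences from control ran from -4.99 to -2.51 with Pb OS, from -5.04 to -2.51 with Sl OS and from -0.97 to 0.08 with W. Over all 18899 genes the medians of the same differences were -0.0008, 0.01 and -0.002. W thus also lowered the group, with 92 of 93 means below control, although the rule kept each of them less than 1 below. Every sample with Pb OS lay below every control sample for 92 members and every sample with Sl OS for 92, where 22.6% and 27.7% of the 13942 genes with a control mean of at least 2 did so. For W the count was 34 members, against 8.71% of those genes. The rule used these contrasts.

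The normalised, batch-corrected CPM of the 93 members summed to 2.13 to 3.87% of the CPM scale in the control samples. With W at 3 h the sums were 1.53 to 2.15%, with Pb OS 0.290 to 0.776% and with Sl OS 0.132 to 0.598%. At 24 h they lay between 1.23 and 2.71% in the 12 samples. These sums rest largely on a few abundant members, among them AT1G29910 and LHB1B1 with control means of 11006 and 9843 CPM.

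**Figure D1:**
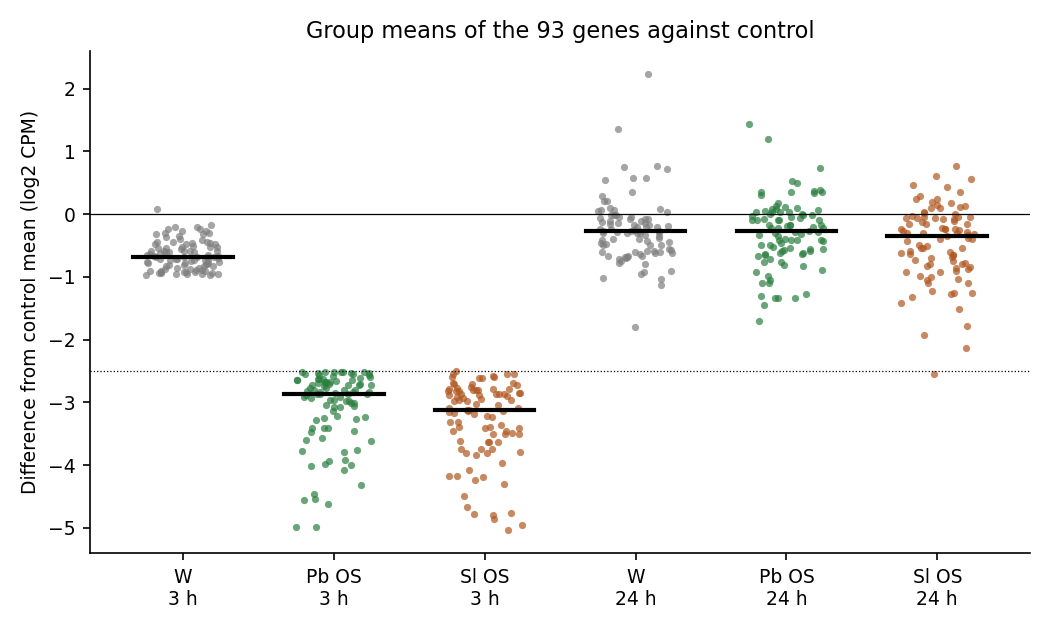
Difference of each group mean from the control mean (log2 CPM, vertical axis) for the 93 genes in the 6 treated groups, with 1 point for each gene, black bars at the medians and a dotted line at the limit of -2.5 that the rule set for both OS groups at 3 h. The points with W at 3 h sit between -0.97 and 0.08, and the medians at 24 h are -0.28, -0.27 and -0.35.

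The replicates differed in how far the group fell. The median of the members against the control mean, on the log2 scale, was -2.90, -2.06, -3.46 and -3.37 in the 4 samples with Pb OS and -2.85, -3.90, -3.25 and -2.54 in those with Sl OS. It was -0.60, -0.88 and -0.64 with W at 3 h and 0.05, -0.30, 0.21 and 0.07 in the control samples. Replicate 2 with Pb OS was lowered least among the OS samples and replicate 2 with Sl OS most. Every OS sample lay below every W sample in this median, and the ranges of both secretions overlapped.

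Means were lower with Sl OS than with Pb OS for 66 of 93 members, and the median difference of Sl OS from Pb OS was -0.23 on the log2 scale. The order turned round between the replicate sets. In replicates 1 and 2 the median of the members from control stood at -3.298 for Sl OS, below -2.23 for Pb OS. In replicates 3 and 4 it stood at -3.02 for Sl OS, above -3.54 for Pb OS. Compared by replicate number, Sl OS had the lower sample median in replicate 2 alone, at -3.90 against -2.06. No share over all genes stands beside the 66 members. Samples of the secretions did not overlap for 1 of 93 members, beside 1.29% of the 13942 genes. The widest gaps were those of AT4G20820, a berberine bridge enzyme-like protein, of the bHLH transcription factor gene BHLH61 and of the pectin acetylesterase gene PAE10. AT4G20820 lay -4.54 from control with Pb OS and -2.78 with Sl OS. BHLH61 lay at -4.45 and -2.91, whereas PAE10 went the other way with -3.22 and -4.50. All 3 are genes of few reads, with means under 1 CPM in both OS groups.

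**Figure D2:**
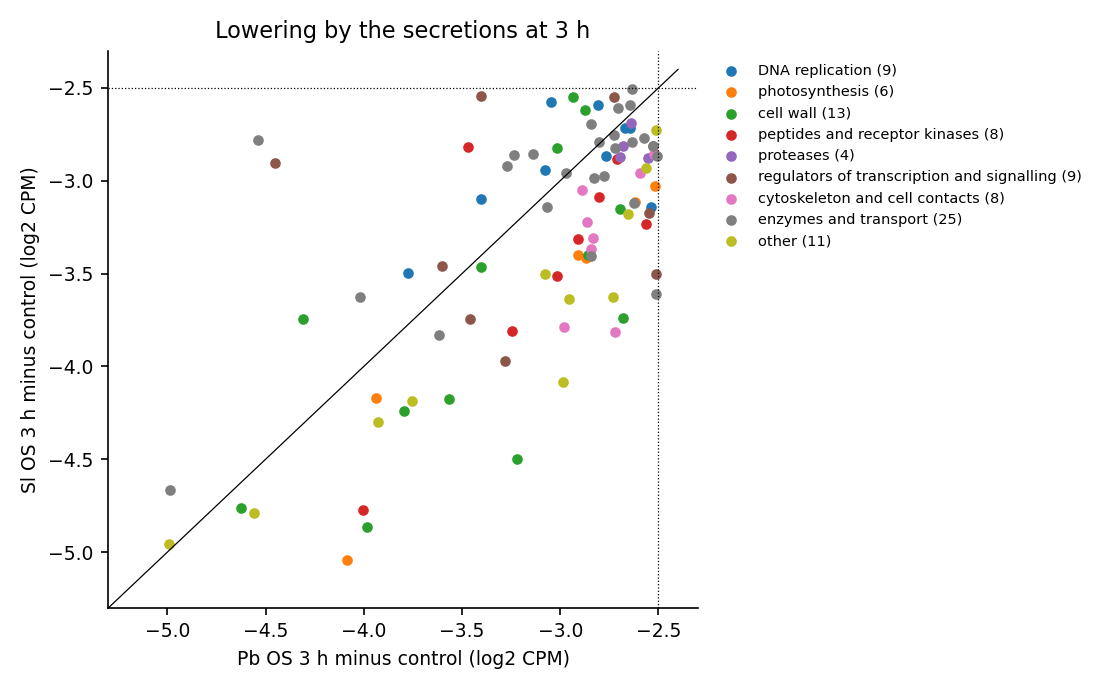
Difference from the control mean at 3 h with Pb OS (horizontal axis, log2 CPM) and with Sl OS (vertical axis, log2 CPM) for the 93 genes, coloured by the class of the product with the number of genes in brackets. Dotted lines mark the limits of the rule and the solid line equal values. Of the 93 points, 66 lie below the solid line.

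The limit cut through a continuum. Just inside it stood CYP96A12 with -2.64 with Pb OS and -2.51 with Sl OS, FPGS3 with -2.51 with Pb OS and -2.87 with Sl OS and AT4G04630 with -2.51 with Pb OS and -2.73 with Sl OS. Just outside it stood AT5G46220 with -3.09 with Pb OS and -2.497 with Sl OS, the cytokinin response regulator gene ARR9 with -2.49 with Pb OS and -2.55 with Sl OS and the cyclin gene CYCD3-1 with -2.49 with Pb OS and -2.95 with Sl OS. Of the 13942 genes with a control mean of at least 2, 176 or 1.26% lay at least 2.5 below control with both secretions, and 83 of these were left out because W lowered them by 1 or more. Among the members W lowered the metal-binding gene HIPP32, the RING finger gene AT3G07200 and the galactosyltransferase gene GALT4 most, to -0.97, -0.96 and -0.96 from control. At the other end stood the glutathione transferase gene GSTU20 at 0.08, the sole member with a W mean above control, the adenine phosphoribosyltransferase gene APT3 at -0.18 and CYP96A12 at -0.20.

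Among the photosynthesis genes, the members held 3 of the 21 measured genes of light-harvesting chlorophyll proteins, LHCB2.4 (AT3G27690), LHB1B1 (AT2G34430) and AT1G29910, which the table calls LHCB1.1 as it does the neighbouring copy AT1G29920. All 3 encode antenna proteins of photosystem II. LHCB2.4 had 971, 685, 3093 and 2844 CPM in the control samples, 586, 755 and 1582 CPM with W at 3 h, 36.9, 155, 114 and 108 CPM with Pb OS and 30.9, 9.03, 81.8 and 219 CPM with Sl OS. Every OS sample lay below every other sample of the 3 h set, and the group means were -4.09 and -5.04 from control on the log2 scale. AT1G29910 had 12649, 8194, 12144 and 11037 CPM in the control samples, 7409, 5471 and 7509.7 CPM with W at 3 h, 1048, 2384, 1111 and 1769 CPM with Pb OS and 1054, 338, 1404 and 2131 CPM with Sl OS. LHB1B1 had 10036, 6039, 11789.6 and 11509 CPM in the control samples, 6285, 4102 and 6068 CPM with W at 3 h, 1501, 3214, 835 and 1433 CPM with Pb OS and 1224, 512, 1173 and 1976 CPM with Sl OS. In both genes the lowest sample was replicate 2 with Sl OS, and no OS sample reached the lowest W sample.

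The other copies of these antenna genes were lowered less. Means with Pb OS and Sl OS lay -1.40 and -1.79 from control for LHCB2.1, -1.76 and -2.297 for LHCB2.2, -1.59 and -2.17 for AT1G29920, -1.59 and -1.90 for LHCB1.3 and -1.51 and -1.67 for LHB1B2. Over all 21 light-harvesting genes both OS means lay below control in 21, and at least 1 below it in 19, where 13.8% of genes with a control mean of at least 2 did so. Several of these genes are near-identical copies, so the split of reads between them is uncertain.

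LHCB2.4 had the largest mean drop of the light-harvesting members, and the bases before its annotated start are shown for that reason. The G-box CACGTG, the palindromic site that many light-responsive promoters carry, is in capitals and begins 88 bases before the start (RefSeq annotation, assembly TAIR10.1, chr3:10255656-10255905, plus strand, 250 bases):
LHCB2.4: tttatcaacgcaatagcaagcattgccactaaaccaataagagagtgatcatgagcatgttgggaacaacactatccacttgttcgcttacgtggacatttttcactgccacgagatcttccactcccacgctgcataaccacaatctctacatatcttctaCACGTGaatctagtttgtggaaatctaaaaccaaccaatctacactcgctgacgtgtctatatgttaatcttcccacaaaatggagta

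CHLH, the large subunit of the magnesium chelatase that opens chlorophyll synthesis, had 2023, 1478, 4214 and 3722 CPM in the control samples, 1220.2, 1188 and 2183 CPM with W at 3 h, 189, 374, 355 and 589.6 CPM with Pb OS and 204, 78.0, 399 and 594 CPM with Sl OS. Its controls spread widely, and the highest OS sample stood at 594 CPM against 1188 CPM in the lowest W sample. CRR3, a protein of the chloroplast NADH dehydrogenase-like complex, had 60.4, 44.8, 83.0 and 71.8 CPM in the control samples, 40.1, 34.1 and 45.6 CPM with W at 3 h, 9.52, 20.6, 7.34 and 10.41 CPM with Pb OS and 8.85, 3.37, 8.57 and 14.2 CPM with Sl OS. ACA1 (AT3G52720), an alpha carbonic anhydrase, had 11.8, 10.9, 47.6 and 33.1 CPM in the control samples, 6.92, 15.6 and 12.2 CPM with W at 3 h, 1.53, 1.75, 1.11 and 1.22 CPM with Pb OS and 0.766, 0.605, 1.77 and 2.33 CPM with Sl OS. With Pb OS and Sl OS the means of CRR3 lay -2.52 and -3.03 from control and those of ACA1 -3.94 and -4.17. The group means of all 6 photosynthesis members were lower with Sl OS than with Pb OS. Single replicates did not all go this way. In replicates 3 and 4 all of them but LHCB2.4 were higher with Sl OS than with Pb OS at the same number. LHCB2.4 was so in replicate 4 only.

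DNA replication was represented by 9 members: MCM2, MCM3, MCM4, MCM6 and MCM7 of the MCM2-7 helicase, ETG1, which binds the MCM complex, POLA, the catalytic subunit of DNA polymerase alpha, AT1G67320, the large subunit of the primase, and TOP2, topoisomerase II. Their means lay -3.77 to -2.54 from control with Pb OS, -3.49 to -2.58 with Sl OS and -0.94 to -0.60 with W. POLA had 16.2, 17.6, 10.37 and 12.04 CPM in the control samples, 7.31, 6.01 and 8.25 CPM with W at 3 h, 2.001, 2.91, 1.65 and 2.403 CPM with Pb OS and 2.57, 2.03, 1.64 and 2.22 CPM with Sl OS. MCM2 had 16.6, 18.2, 8.82 and 9.06 CPM in the control samples, 7.03, 4.91 and 8.33 CPM with W at 3 h, 2.21, 2.69, 1.69 and 1.46 CPM with Pb OS and 1.68, 1.72, 1.88 and 2.39 CPM with Sl OS. In both genes the control samples of replicates 1 and 2 were the highest of the 3 h set, and the OS samples lay below all W samples. TOP2 had 6.02, 4.43, 3.15 and 3.53 CPM in the control samples, 4.04, 2.12 and 2.39 CPM with W at 3 h, 0.508, 1.02, 0.573 and 0.875 CPM with Pb OS and 0.481, 0.309, 0.404 and 0.813 CPM with Sl OS.

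MCM5, the only MCM gene of the helicase outside the group, missed the limit with -2.29 with Pb OS, -2.31 with Sl OS and -0.77 with W. All 7 genes of the list of MCM2 to MCM7 with POLA thus lay more than 2 below control with both secretions. Among 29 cyclin genes of the A, B, D and U types in the table, 9 had a control mean of at least 2. Of these, 3 lay at least 1 below control with both secretions and 2 at least 2.5 below, and none was a member. Over all genes at that control level the shares were 13.8% and 1.26%.

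Promoters of these replication genes are shown because E2F transcription factors, which switch on genes of DNA synthesis, bind the sequences TTTCCCGC and TTTGGCGC. Either form, on either strand and from 250 bases before to 50 after the annotated start, was found in 5 of the 9 replication members, in 8 of the 92 members with a promoter in the reference and in 331 of 27443 protein-coding genes, which is 8.70% and 1.21%. Windows of 30 bases around each match follow, 5′ to 3′ on the strand of the gene, with the match in capitals, in RefSeq assembly TAIR10.1. A match written GCGGGAAA or GCGCCAAA is on the opposite strand.
MCM2, chr1:16970189-16970218, plus strand: tggcgccaataTTTCCCGCctaatcgacga
MCM6, chr5:18010695-18010724, minus strand: tatactttttaGCGGGAAAatgttagagga
POLA, first form, chr5:26776891-26776920, plus strand: atcgtgtcgatTTTCCCGCcatctccattt
POLA, second form, chr5:26776872-26776901, plus strand: gcaaatggataGCGCCAAAatcgtgtcgat
MCM3, chr5:18773858-18773887, minus strand: ggaaatcaaacGCGCCAAAcaagcgcgtag
MCM4, chr2:7130746-7130775, minus strand: cagtaataatgGCGCCAAAatcaagtgaag
PER12, chr1:26963921-26963950, plus strand: cttgaatgccaGCGGGAAAaaaaaatatac
EXPB3, chr4:14002293-14002322, minus strand: ccacagaatctGCGGGAAAtttcaacggtc
TPPH, chr4:18451487-18451516, minus strand: gatcggtgtgaGCGGGAAAgccgctttgtg

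In MCM2, MCM4, MCM6 and POLA the matches began 14, 35, 46 and, for both forms of POLA, 51 and 70 bases before the start, and in MCM3 170 bases. In the 3 members outside the replication class, the peroxidase gene PER12, the beta-expansin gene EXPB3 and the trehalose phosphatase gene TPPH, they began 155, 187 and 200 bases before it. The 4 other replication members, MCM7, ETG1, TOP2 and AT1G67320, held neither form in this window.

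Genes of the cell wall formed the largest class with a shared site of action, 13 members. XTH31, a xyloglucan endotransglucosylase-related enzyme, had 39.1, 37.0, 171 and 102 CPM in the control samples, 44.8, 38.6 and 107 CPM with W at 3 h, 1.94, 2.57, 2.65 and 5.21 CPM with Pb OS and 2.57, 0.506, 2.92 and 12.4 CPM with Sl OS. Its means lay -4.62 and -4.76 from control, and replicate 4 with Sl OS was the least lowered sample. AT1G67750, a pectate lyase that cleaves pectin, had 4.32, 6.90, 13.3 and 7.96 CPM in the control samples, 4.71, 4.17 and 4.82 CPM with W at 3 h, 0.409, 2.54, 0.268 and 0.180 CPM with Pb OS and 0.430, 0.0252, 0.223 and 1.81 CPM with Sl OS. AT5G63180, another pectin lyase-like protein, had 111, 97.1, 110.2 and 98.2 CPM in the control samples, 77.7, 54.4 and 78.2 CPM with W at 3 h, 13.3, 23.3, 7.57 and 17.3 CPM with Pb OS and 19.8, 8.07, 15.8 and 32.3 CPM with Sl OS. AT1G67750 was down to 0 reads in its lowest library, whereas AT5G63180 kept at least 235 reads in each of the 27 libraries.

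EXPA6, an alpha-expansin, proteins that loosen walls without cutting them, had 64.2, 51.7, 71.9 and 59.0 CPM in the control samples, 37.1, 30.4 and 45.1 CPM with W at 3 h, 6.002, 12.03, 2.73 and 3.63 CPM with Pb OS and 5.14, 1.009, 3.25 and 7.88 CPM with Sl OS. The other expansin members, EXPA5 and EXPB3, had means of -2.94 and -3.01 from control with Pb OS and -2.55 and -2.82 with Sl OS. CSLD5, a cellulose synthase-like protein active in dividing cells, had 12.5, 10.3, 5.83 and 4.33 CPM in the control samples, 7.52, 3.63 and 3.27 CPM with W at 3 h, 0.807, 0.169, 0.316 and 0.487 CPM with Pb OS and 0.566, 0.169, 0.798 and 1.32 CPM with Sl OS. The OS samples of EXPA6 and CSLD5 lay below all W and control samples.

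AT1G60590, a further pectin lyase-like protein, had 2.67, 2.23, 11.6 and 8.60 CPM in the control samples, 1.89, 1.81 and 4.85 CPM with W at 3 h, 0.129, 0.570, 0.903 and 0.240 CPM with Pb OS and 0.202, 0.161, 0.0984 and 1.44 CPM with Sl OS. FLA1, a fasciclin-like arabinogalactan protein of the cell surface, had 25.6, 21.3, 32.5 and 25.1 CPM in the control samples, 21.2, 15.4 and 30.5 CPM with W at 3 h, 2.98, 9.71, 2.46 and 3.54 CPM with Pb OS and 3.21, 0.441, 4.39 and 11.5 CPM with Sl OS. Replicate 2 with Pb OS and replicate 4 with Sl OS stood above the other samples of their groups for FLA1, as they did for EXPA6. The class was completed by PAE10, AT4G29360, a glycosyl hydrolase of family 17, GALT4, which adds galactose to arabinogalactan proteins, and PER12, with means of -3.40 to -2.68 from control with Pb OS and -4.50 to -3.40 with Sl OS.

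Family lists showed how far the members stood for their kin. Of the 13 expansin genes with a control mean of at least 2, 8 lay at least 1 below control with both secretions and 6 at least 2.5 below, 3 of which W lowered too far for the rule. For pectate lyases the counts were 7 and 4 of 8. Among 13 XTH genes, 3 lay at least 1 below and 4 at least 1 above control with both, and among 21 fasciclin-like and arabinogalactan protein genes 5 lay below and 4 above. The XTH and fasciclin-like families thus held genes on either side of control. Beside these counts stands the share of 13.8% over all genes at that control level, and the rule used the same contrasts.

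Peptide signals and their receptors numbered 8. EPFL9, stomagen, a secreted peptide that raises stomatal density, had 4.82, 3.74, 5.06 and 4.46 CPM in the control samples, 2.77, 2.60 and 2.53 CPM with W at 3 h, 0.292, 1.13, 0.306 and 0.495 CPM with Pb OS and 0.352, 0.0783, 0.570 and 0.679 CPM with Sl OS. All 8 OS samples lay below the W samples, and the 3 W samples below the 4 controls. ERECTA, a receptor kinase whose signalling stomagen antagonises, lay -1.94 from control with Pb OS and -2.54 with Sl OS and was no member. AT4G20940, a leucine-rich repeat receptor-like kinase of guard cells known as GHR1, had 10.2, 7.14, 13.2 and 10.102 CPM in the control samples, 5.77, 4.75 and 8.49 CPM with W at 3 h, 1.18, 1.48, 0.206 and 0.409 CPM with Pb OS and 0.398, 0.210, 0.286 and 0.726 CPM with Sl OS. Among the samples with Pb OS it was highest in replicates 1 and 2. RGF9, a root meristem growth factor peptide, BRL2, a receptor of the brassinosteroid receptor family, SD113, an S-domain receptor kinase, and the kinases AT4G34220, AT5G51560 and AT1G54820 lay between -3.47 and -2.57 with Pb OS and between -3.51 and -2.82 with Sl OS.

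On chromosome 4 EPFL9 has a member as its nearest protein-coding neighbour. AT4G12980, an auxin-responsive family protein, lies 2147 bases away on the same minus strand, EPFL9 at 7585869 to 7587099 and AT4G12980 at 7589247 to 7591259 (TAIR10.1). AT4G12980 had 31.1, 25.2, 129 and 103 CPM in the control samples, 18.3, 55.1 and 53.3 CPM with W at 3 h, 0.997, 3.15, 3.18 and 3.36 CPM with Pb OS and 1.84, 0.728, 2.11 and 6.25 CPM with Sl OS. Its control samples were lower in replicates 1 and 2 than in replicates 3 and 4, and replicate 1 with Pb OS stood below its 3 companions. No other pair of members were next to each other.

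Of 9 regulators, HAT3, a homeodomain-leucine zipper factor of class II that acts in leaf polarity and shade responses, had 18.6, 10.7, 14.3 and 14.6 CPM in the control samples, 9.23, 6.35 and 7.88 CPM with W at 3 h, 1.44, 1.62, 1.497 and 0.812 CPM with Pb OS and 1.97, 0.750, 0.654 and 1.34 CPM with Sl OS. FAF3, of the FAF family, had 4.66, 4.54, 7.50 and 6.10 CPM in the control samples, 3.96, 3.26 and 5.67 CPM with W at 3 h, 1.06, 1.25, 0.873 and 0.789 CPM with Pb OS and 0.776, 0.161, 0.540 and 0.872 CPM with Sl OS. In both, every OS sample lay below the lowest W sample. HAT3 was the only member among 6 class II genes with a control mean of at least 2. Of these 6, 2 lay at least 1 below control with both secretions, beside 13.8% of all genes at that level. RL2, a small MYB-like protein of the RADIALIS family, lay at -3.60 and -3.46, NIMIN-3, which interacts with the salicylic acid regulator NIM1, at -2.73 and -2.55, and DRB3, a double-stranded RNA-binding protein, at -3.28 and -3.97. AT4G38860, a SAUR-like auxin-responsive gene, lay at -3.40 and -2.54.

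The other auxin and growth families differed in how many of their genes were lowered. Of 14 genes that the table names SAUR with a control mean of at least 2, 12 lay at least 1 below control with both secretions and 5 at least 2.5 below, all of which W also lowered by 1 or more. For Aux/IAA genes the counts were 6 and 2 of 18, for GASA peptides 4 and 1 of 5, and for the bHLH genes of the PRE, PAR and IBH type 2 and 1 of 4. At least 1 above control with both secretions lay 2 Aux/IAA genes and 1 GASA gene, and no gene of the other lists named so far. None of these lists held a member. COL and BBX genes, TCP genes and SWEET sugar transporter genes had no gene at 2.5 below, and GDSL esterase genes had 5 of 34, none of them a member. Of 17 COL and BBX, 14 TCP and 6 SWEET genes, 3, 2 and 1 lay at least 1 below control with both. In that order 2, 1 and 1 lay at least 1 above it. Of the GDSL genes 12 lay at least 1 below and 6 at least 1 above. In the NDH complex 13 of 15 genes lay at least 1 below control with both, CRR3 among them. Over all genes with a control mean of at least 2 the shares were 13.8% at least 1 below and 1.26% at least 2.5 below. The rule used the same contrasts.

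The 4 proteases had similar means. SBT1.6, a subtilisin-like serine protease, had 135, 159, 164 and 165 CPM in the control samples, 98.6, 117 and 114 CPM with W at 3 h, 20.8, 55.2, 16.8 and 17.0 CPM with Pb OS and 27.1, 12.1, 21.1 and 29.1 CPM with Sl OS. SBT2.6, SBT3.13 and AMP1, a peptidase family M28 protein whose loss enlarges the shoot meristem, lay between -2.70 and -2.55 with Pb OS and between -2.88 and -2.69 with Sl OS, SBT1.6 included. The 8 genes of the cytoskeleton and of cell contacts included SCAR1, which activates actin branching, the formin gene FH9, the villin gene VLN1, FPP1, IQD21 (spelled iqd21 in the table), AT4G23020 and CRRSP11, annotated as plasmodesmata-located protein 3. They lay between -2.98 and -2.52 with Pb OS and between -3.81 and -2.86 with Sl OS, and all 8 means were lower with Sl OS. In replicates 3 and 4, however, the named genes of this class were higher with Sl OS than with Pb OS, except FH9 in replicate 3.

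Enzymes and transporters of metabolism made up 25 members. AT1G73600, annotated as a methyltransferase that uses S-adenosylmethionine and known to act on phosphoethanolamine in lipid synthesis, had 499.8, 626, 1592 and 1005 CPM in the control samples, 358, 749 and 753 CPM with W at 3 h, 14.2, 42.2, 37.8 and 22.0 CPM with Pb OS and 33.4, 13.8, 30.3 and 86.6 CPM with Sl OS, a mean drop of -4.82 over both secretions. FBA5, a fructose-bisphosphate aldolase, had 785, 651, 1071 and 1026 CPM in the control samples, 680.2, 559 and 536 CPM with W at 3 h, 170.1, 385, 83.3 and 71.4 CPM with Pb OS and 194, 33.1, 88.0 and 173 CPM with Sl OS. All 8 OS samples of both genes lay below the W and control samples, and FBA5 was highest among them in replicate 2 with Pb OS. GSTU20, a glutathione transferase, had 261, 416, 329 and 358 CPM in the control samples, 442, 322 and 317 CPM with W at 3 h, 47.1, 106, 43.2 and 31.2 CPM with Pb OS and 76.3, 12.4, 64.1 and 84.1 CPM with Sl OS. W left GSTU20 within the range of the control samples and above it in 1 sample, and replicate 2 with Sl OS lay far below the other OS samples.

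Both glucosinolate branches had a member. IPMI1, a small subunit of the isopropylmalate isomerase that lengthens the methionine chain of aliphatic glucosinolates, had 65.3, 112, 158 and 176 CPM in the control samples, 96.0, 109.5 and 85.3 CPM with W at 3 h, 16.7, 32.7, 13.1 and 3.57 CPM with Pb OS and 26.1, 9.39, 13.8 and 21.6 CPM with Sl OS. Of the 15 aliphatic glucosinolate genes listed, 11 lay at least 1 below control with both secretions, beside 13.8% of all genes with a control mean of at least 2. The rule used these contrasts. IPMI2 was nearest to the rule with -2.53 and -2.15. IGMT4, an indole glucosinolate methyltransferase, had 488, 422, 444 and 506 CPM in the control samples, 269, 231 and 254 CPM with W at 3 h, 105, 131, 33.2 and 52.5 CPM with Pb OS and 126, 118, 29.4 and 51.3 CPM with Sl OS. Close copies of IGMT4 stand beside it in the genome, so its reads may be shared with them.

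GA2, the ent-kaurene synthase of gibberellin synthesis, lay at -2.64 and -2.79, and PAL3, a phenylalanine ammonia-lyase, at -2.83 and -2.98. AT3G60290, an oxygenase that needs oxoglutarate and iron, had 20.1, 9.42, 28.7 and 26.9 CPM in the control samples, 17.8, 12.7 and 15.99 CPM with W at 3 h, 2.01, 5.03, 0.767 and 0.836 CPM with Pb OS and 1.57, 0.832, 1.14 and 2.38 CPM with Sl OS. AT4G02850, a PhzC/PhzF family protein, had 10.097, 3.79, 13.2 and 17.2 CPM in the control samples, 9.26, 4.17 and 14.1 CPM with W at 3 h, 0.646, 0.456, 0.285 and 1.49 CPM with Pb OS and 1.26, 0.0967, 1.17 and 2.63 CPM with Sl OS. AT1G06980, annotated as a lumazine synthase, had 5.79, 4.92, 6.21 and 5.301 CPM in the control samples, 3.17, 3.36 and 3.18 CPM with W at 3 h, 0.556, 1.25, 0.684 and 0.748 CPM with Pb OS and 0.700, 0.491, 0.488 and 0.444 CPM with Sl OS. All OS samples of these 3 genes lay below all control and W samples.

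The remaining 11 members have no class. AT1G13650, an uncharacterized protein, had the largest mean drop of all, -4.97 on the log2 scale, with 32.2, 22.3, 158 and 133 CPM in the control samples, 17.3, 54.5 and 62.7 CPM with W at 3 h, 0.863, 2.04, 3.65 and 2.29 CPM with Pb OS and 0.923, 0.763, 2.81 and 8.28 CPM with Sl OS. AT5G03395, which the reference does not annotate as coding, had 4.87, 3.999, 16.6 and 16.2 CPM in the control samples, 4.197, 4.48 and 12.2 CPM with W at 3 h, 0.189, 0.785, 1.02 and 1.05 CPM with Pb OS and 0.556, 0.0544, 1.09 and 1.46 CPM with Sl OS. AT5G05960, a lipid-transfer-like protein, had 4.15, 13.4, 6.16 and 4.90 CPM in the control samples, 4.65, 4.59 and 2.75 CPM with W at 3 h, 0.393, 1.89, 0.289 and 0.146 CPM with Pb OS and 0.688, 0.0571, 0.359 and 0.791 CPM with Sl OS. In AT1G13650 and AT5G03395 the controls of replicates 3 and 4 were above those of replicates 1 and 2, and in AT5G05960 replicate 2 was the highest control. AT2G10940, of the same protein superfamily as AT5G05960, had 797, 529, 569 and 463 CPM in the control samples, 416, 192 and 349.8 CPM with W at 3 h, 77.7, 248, 33.2 and 47.7 CPM with Pb OS and 39.3, 16.1, 60.7 and 122 CPM with Sl OS.

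**Figure D3:**
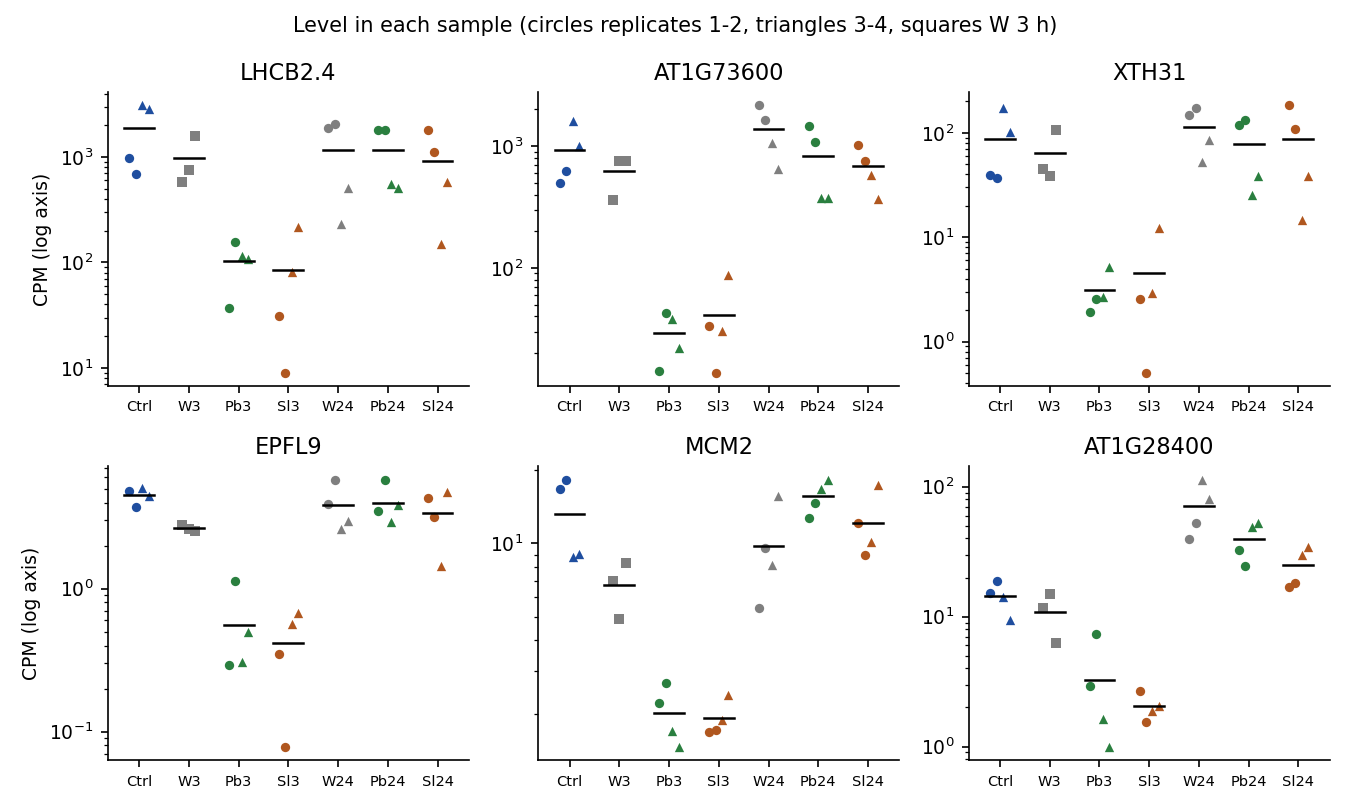
CPM of 6 members in each of the 27 samples (vertical axes, logarithmic) for control, W, Pb OS and Sl OS at 3 h and W, Pb OS and Sl OS at 24 h, with circles for replicates 1 and 2, triangles for replicates 3 and 4, squares for the 3 samples with W at 3 h and bars at the arithmetic means. LHCB2.4 ranged from 9.03 to 219 CPM with Sl OS at 3 h against 685 to 3093 CPM in the controls.

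At 24 h the members stood nearer to control than with the secretions at 3 h, mostly on its lower side. Medians of the members lay -0.28 from control with W, -0.27 with Pb OS and -0.35 with Sl OS, beside 0.01, 0.01 and 0.01 over all genes. Means lay below control for 75, 67 and 75 of the 93 members. They lay within 1 of control for 87, 81 and 77, and more than 1 below it for 4, 10 and 16. No share over all genes stands beside these counts, so they describe the members alone. AT4G02850 with Sl OS, at -2.55, was the only mean still beyond -2.5.

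The question whether the secretions still differed from water at 24 h was tested with limma over all 18899 genes. The replicate number was a block, and the limit was a Benjamini-Hochberg adjusted p under 0.05. The rule did not use the 24 h groups compared. The fit held all 27 samples, however, so its block terms and standard errors came in part from samples that the rule used. With Pb OS against W none of the 93 members was called in either direction, while 0.037% of all genes were called higher and 0.0212% lower. With Sl OS against W none was called either, beside 0.238% higher and 0.153% lower, and with Pb OS against Sl OS none, with 0% of all genes higher and 0% lower. At an unadjusted p under 0.05 there were 6, 5 and 0 members, 6.45, 5.38 and 0% of 93, where 3.52, 6.34 and 3.66% of all genes did so. The median standard error of a difference was 0.47 on the log2 scale.

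Replicates 1 and 2 stood apart from 3 and 4 at 24 h in all groups alike, and a fit on the 12 samples at 24 h alone, chosen after seeing the data, takes up that difference in its block. In this fit 3 members were lower with Sl OS than with W, beside 0.423% of all genes lower and 0.825% higher, and no member was called with Pb OS against W, beside 0.0106% lower and 0.106% higher. With Pb OS against Sl OS the shares of all genes were 0% and 0%, and no member was called. At an unadjusted p under 0.05 the members numbered 23 with Pb OS and 20 with Sl OS against W, 24.7 and 21.5% of 93, beside 10.8 and 16.1% of all genes. These went both ways, with 8 higher and 15 lower with Pb OS and 5 higher and 15 lower with Sl OS.

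The first of the 3 was AT1G28400, annotated as a GATA zinc finger protein. At 3 h it had 15.3, 18.8, 14.2 and 9.41 CPM in the control samples, 11.7, 14.9 and 6.22 CPM with W at 3 h, 2.93, 7.399, 1.62 and 0.995 CPM with Pb OS and 2.69, 1.54, 1.87 and 2.05 CPM with Sl OS. At 24 h it had 39.7, 52.4, 113 and 81.1 CPM with W, 32.3, 24.3, 49.3 and 52.1 CPM with Pb OS and 16.9, 18.1, 29.9 and 34.6 CPM with Sl OS. Every W sample stood above all controls and above every sample with Sl OS. Sl OS lay -1.48 ± 0.16 (SE) from W in the fit of the 24 h samples (limma, adjusted p = 0.011), and the fit of all 27 samples gave the same difference with an adjusted p of 0.39. In the same limma fit of all 27 samples W at 24 h was 2.24 ± 0.50 (SE) above control, with an adjusted p of 0.019.

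AT3G60290, the oxygenase, had 16.2, 14.8, 12.96 and 14.4 CPM with W, 8.05, 7.50, 7.54 and 7.97 CPM with Pb OS and 5.69, 5.02, 4.30 and 8.60 CPM with Sl OS at 24 h. Every Sl OS sample lay below every W sample, with a difference of -1.35 ± 0.16 and adjusted p of 0.016 in the limma fit of the 24 h samples and 0.41 in that of all samples. AT4G02850 had 11.8, 9.05, 2.68 and 6.08 CPM with W, 7.11, 7.44, 1.04 and 3.90 CPM with Pb OS and 3.51, 1.88, 0.355 and 3.19 CPM with Sl OS at 24 h and differed by -1.97 ± 0.31, with limma adjusted p of 0.032 and 0.63. Its groups overlapped, and W was higher in replicates 1 and 2 than in replicates 3 and 4. The calls changed with single samples. When each of the 8 samples with W or Sl OS was left out of the fit in turn, AT1G28400 was called in 7 of 8 fits, AT3G60290 in 3 and AT4G02850 in 1. Without replicate 2 of W no member was called, without replicate 1 of W or replicate 1, 2 or 3 of Sl OS 1 was, and without replicate 3 or 4 of W 2 were.

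AT1G06980 at 24 h had 3.93, 3.96, 4.47 and 2.68 CPM with W, 2.62, 2.14, 2.68 and 1.55 CPM with Pb OS and 3.29, 1.07, 2.38 and 2.80 CPM with Sl OS. It lay -0.75 ± 0.29 (SE) from W with Pb OS and -0.75 ± 0.29 with Sl OS, with unadjusted p of 0.017 and 0.017 and limma adjusted p of 1 and 0.56. AT1G73600 had 2159.9, 1643, 1059 and 653 CPM with W, 1451, 1088, 373 and 374 CPM with Pb OS and 1026, 756, 575 and 366 CPM with Sl OS at 24 h, and each OS sample lay below the W sample of the same number. FAF3 had 10.103, 8.83, 8.65 and 6.07 CPM with W, 6.30, 8.88, 3.43 and 4.70 CPM with Pb OS and 5.297, 5.52, 5.08 and 5.23 CPM with Sl OS. AT2G10940 had 264, 365, 179 and 465 CPM with W, 272, 254, 283 and 269.7 CPM with Pb OS and 162, 76.8, 39.1 and 618 CPM with Sl OS. None of these passed the adjusted threshold in either fit, and in AT2G10940 the 4 samples with Sl OS alone spread from 39.1 to 618 CPM.

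The replication genes had higher means with OS than with W at 24 h. All 9 were higher with Pb OS than with W, by 0.32 to 0.77, and all 9 with Sl OS than with W, by 0.14 to 0.57. POLA had 7.13, 9.23, 6.82 and 15.1 CPM with W, 11.5, 13.3, 17.2 and 19.5 CPM with Pb OS and 13.4, 10.7, 10.2 and 20.2 CPM with Sl OS. MCM2 had 5.45, 9.58, 8.16 and 15.7 CPM with W, 12.7, 14.7, 16.8 and 18.3 CPM with Pb OS and 12.1, 8.99, 10.104 and 17.4 CPM with Sl OS. TOP2 had 3.04, 4.88, 2.71 and 4.99 CPM with W, 6.002, 5.22, 5.23 and 7.02 CPM with Pb OS and 4.11, 3.69, 4.31 and 6.90 CPM with Sl OS. In POLA and MCM2 replicate 4 of W reached into the range of the OS samples, while the other W samples lay below all samples with Pb OS. The differences of Pb OS from W were 0.73 ± 0.24 (SE) for POLA, 0.77 ± 0.31 for MCM2 and 0.63 ± 0.27 for TOP2, with unadjusted p of 0.0064, 0.022 and 0.032 and limma adjusted p of 0.84, 1 and 1. They failed the correction, also in the fit of the 24 h samples, where the adjusted p were 0.23, 0.27 and 0.3. Both comparisons share the W samples. Among the other classes the median difference from W lay between -0.26 and 0.12 with Pb OS and between -0.32 and 0.14 with Sl OS, beside -0.05 and -0.16 over all members.

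**Figure D4:**
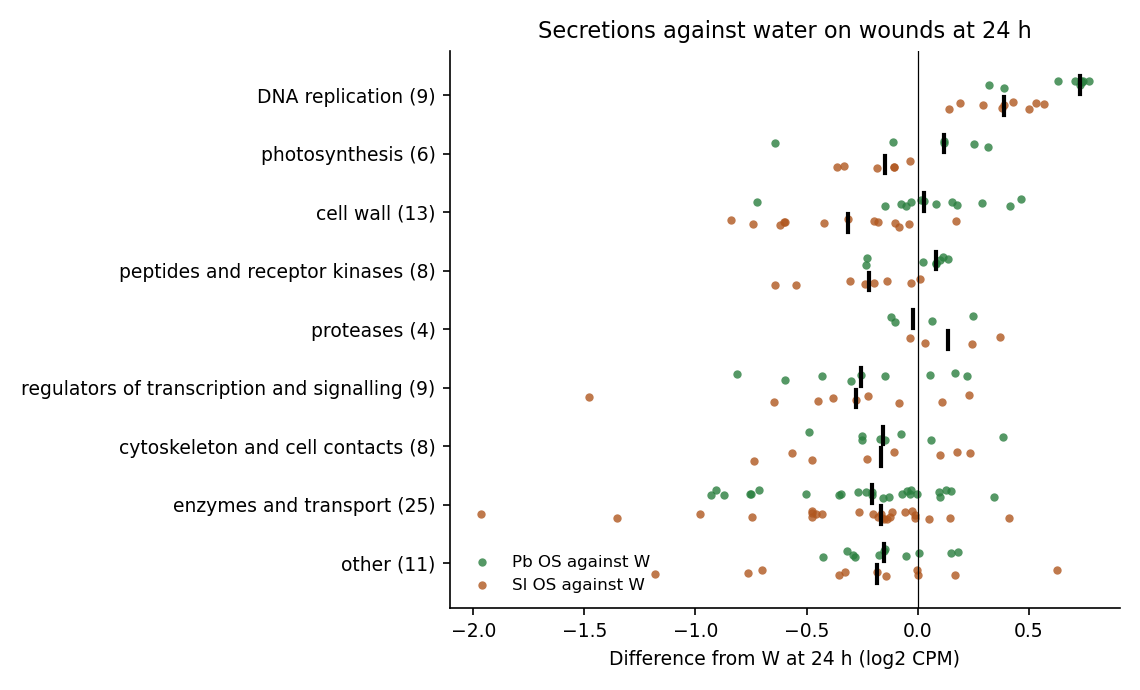
Difference from W at 24 h (horizontal axis, log2 CPM) with Pb OS (green) and Sl OS (brown) for the 93 genes in 9 classes by product, with 1 point for each gene and black bars at the class medians. The 9 replication genes lie to the right of 0 with both secretions, from 0.14 to 0.77.

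Against control, members were counted at an adjusted p under 0.05 (limma) and a log2 difference of more than 1. The controls entered the rule, so these counts are not independent of it. With W at 24 h 1 member was higher, AT1G28400, and 0 lower, where 1.39% and 0.159% of all genes were. With Pb OS 2 were lower and 0 higher, beside 0.212% and 1.58% of all genes. With Sl OS 4 were lower and 0 higher, beside 0.487% and 2.26%. GA2 lay -1.30 ± 0.32 (SE) from control with Pb OS and -1.27 ± 0.32 with Sl OS, with adjusted p of 0.033 and 0.026. AT1G06980 lay at -1.33 ± 0.29 and -1.33 ± 0.29, with adjusted p of 0.015 and 0.01. With Sl OS alone AT3G60290 at -1.78 ± 0.46 and IQD21 at -1.51 ± 0.36 passed, with adjusted p of 0.032 and 0.018. Single libraries decided these counts. The count with W was 0 without replicate 3 or 4 of W or without replicate 1, 3 or 4 of the control, the count with Pb OS was 0 without replicate 4 of Pb OS or replicate 3 of the control and 1 without replicate 1 or 2 of either group, and that with Sl OS was 0 without replicate 2 of Sl OS and 1 without its replicate 1 or without replicate 1 or 3 of the control.

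Part of the spread at 24 h and among the controls followed the replicate numbers. Plants of replicates 1 and 2 overlapped in the growth room, as did those of replicates 3 and 4. In the control, the mean of replicates 3 and 4 was more than 1 above that of replicates 1 and 2 for 17 members and more than 1 below it for 5, beside 3.03% and 3.56% of the 13942 genes. Over the 12 samples at 24 h it was more than 1 above for 3 members and more than 1 below for 15, beside 3.01% and 3.06%. In 13 members, beside 2.02% of the genes, the difference was over 1 in the control and under -1 at 24 h, among them AT1G13650 with 2.44 and -2.61, LHCB2.4 with 1.86 and -2.18, CHLH with 1.195 and -1.44, and AT5G03395 with 1.90 and -2.402. LHCB2.4 at 24 h had 1879, 2049, 234 and 506 CPM with W, 1812, 1789, 558 and 506 CPM with Pb OS and 1821, 1127, 151 and 585 CPM with Sl OS. CHLH had 4211, 4474, 1114 and 1804 CPM with W, 4067, 4214, 1711 and 1799 CPM with Pb OS and 4015, 3271, 924 and 1876 CPM with Sl OS at 24 h. All 6 samples of replicates 1 and 2 lay above all 6 of replicates 3 and 4 in both genes.

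The tabulated values carry a batch correction, by which replicates 1 and 2 and replicates 3 and 4 were shifted as sets. For a gene the shift was the same at both times, so it moved the differences in the control and at 24 h alike. The W samples at 3 h were shifted as if numbered 1, 3 and 4, so that the sample labelled 2 there went with replicates 3 and 4. In reads recovered without the correction, replicates 3 and 4 of the control were more than 1 above replicates 1 and 2 for 8 members and more than 1 below for 4, beside 2.28% and 3.52% of the 13942 genes. At 24 h the counts were 5 and 20, beside 6.51% and 5.42%. In these reads 4 members, in place of 13, had a difference over 1 in the control and under -1 at 24 h, beside 0.918% of the genes. It was 1.53 and -3.52 for AT1G13650, 1.502 and -2.54 for LHCB2.4 and 1.44 and -2.86 for AT5G03395. CHLH, with 0.80 and -1.84, no longer passed. Within replicates 1 and 2 the median of the members at 24 h was -0.15, -0.18 and -0.47 from control with W, Pb OS and Sl OS. Within replicates 3 and 4 it was -0.50, -0.59 and -0.59. At 3 h both sets showed the drop, with medians of -2.23 and -3.54 with Pb OS and -3.298 and -3.02 with Sl OS. For POLA the difference of Pb OS from W at 24 h was 0.60 in replicates 1 and 2 and 0.85 in replicates 3 and 4, and for AT1G28400 that of Sl OS from W was -1.38 and -1.58.

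The other named members differed at 24 h in how many samples lay in the control range. HAT3 had 9.82, 10.6, 14.5 and 17.8 CPM with W, 13.5, 11.7, 12.9 and 15.5 CPM with Pb OS and 13.2, 13.8, 14.3 and 14.1 CPM with Sl OS. EXPA6 had 60.2, 57.9, 32.1 and 65.6 CPM with W, 62.4, 50.6, 56.5 and 63.2 CPM with Pb OS and 53.0, 37.1, 26.9 and 80.9 CPM with Sl OS. EPFL9 had 3.93, 5.79, 2.63 and 2.98 CPM with W, 3.48, 5.72, 2.93 and 3.84 CPM with Pb OS and 4.30, 3.17, 1.43 and 4.71 CPM with Sl OS. The values of HAT3 lay within or just under its control range in all 12 samples, and those of EXPA6 and EPFL9 fell lowest in replicate 3 with Sl OS. XTH31 at 24 h had 149, 172, 52.5 and 85.7 CPM with W, 119, 132, 25.6 and 38.9 CPM with Pb OS and 183, 109, 14.5 and 38.5 CPM with Sl OS, again highest in replicates 1 and 2. LHB1B1 had 4846, 5450.3, 2917 and 4669 CPM with W, 5056, 5579, 6205 and 4967 CPM with Pb OS and 5268, 3521, 2402 and 6037 CPM with Sl OS, and its means lay -1.13, -0.81 and -1.23 from control without passing the test.

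Other promoter motifs were compared in the same window of 250 bases before to 50 after the start, as a description. CACATG, an E-box that MYC factors bind, was in 19.6% of members and 12.9% of all genes on either strand. CACGTG, the G-box, was in 5.43% of members and 7.68% of all genes, and GATAAG, the I-box of light-regulated genes, in 14.1% of members and 14.6% of all genes. TATAAA, searched on the strand of the gene only, was in 29.3% of members and 37.2% of all genes. The auxin response motifs TGTCTC and TGTCGG were in 18.5% of members and 14.2% of all genes and in 5.43% of members and 5.12% of all genes. The W-box forms TTGACC and TTGACT, bound by WRKY factors, were in 14.1% of members and 14.2% of all genes and in 14.1% of members and 21.8% of all genes.

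TGGGCC, a site II type motif known from genes of dividing cells, was in 10.9% of members and 15.5% of all genes, yet in 6 of the 9 replication members. CGTGTG, of the CAMTA type, was in 4.35% of members and 6.52% of all genes, and AAACCCTA, the telo-box, in 1.09% of members and 6.22% of all genes. Among the 13811 genes with a promoter and a control mean of at least 2, TGGGCC was in 21.3%, CGTGTG in 6.47% and AAACCCTA in 5.63%. Lengths of the members were ordinary, with a median longest transcript of 1803 bases beside 1836 bases over genes with a control mean of at least 2. Their places on chromosomes 1 to 5 numbered 24, 15, 16, 19 and 19, that is 25.8, 16.1, 17.2, 20.4 and 20.4% of them, where 26.3, 14.97, 19.8, 15.5 and 23.3% of genes at that control level lie.

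**Figure D5:**
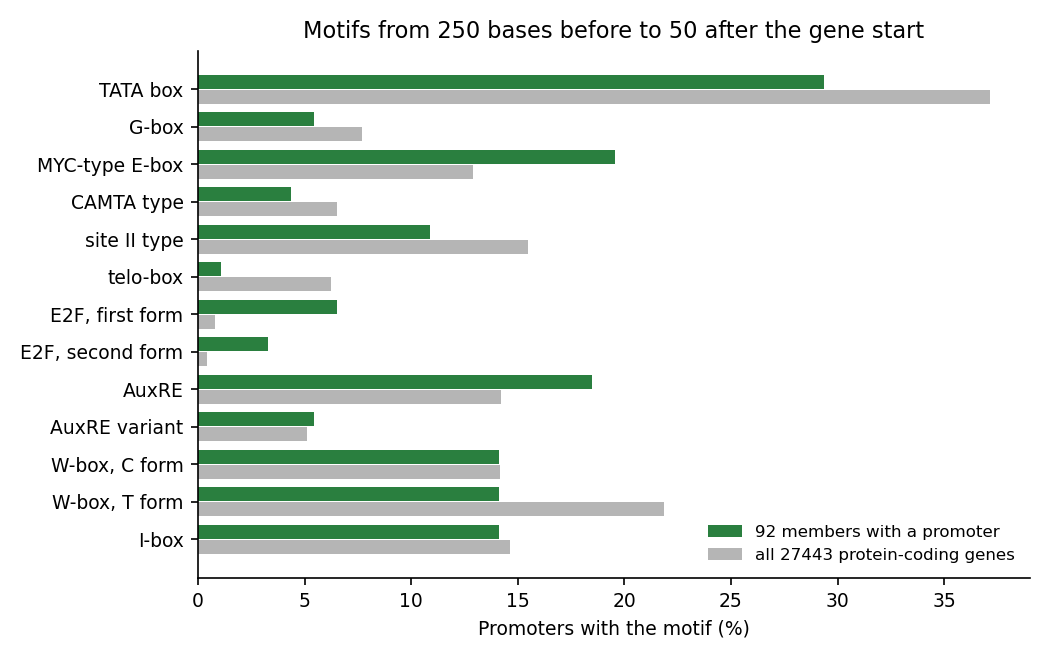
Share of promoters that hold each of 13 motifs at least once (horizontal axis, percent) among the 92 members with a promoter (green) and among all 27443 protein-coding genes (grey). The first E2F form is in 6.52% of members and 0.798% of all genes, the second in 3.26% and 0.434%.

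Levels behind these values differed widely. Control means ran from 4.28 to 11006 CPM with a median of 17.3 CPM. The fewest reads of a member in any of the 27 samples had a median of 26 reads over the 93 members, and 21 members had fewer than 10 reads in at least 1 sample, among them PAE10, AT1G67750 and AT4G20820 with 0 reads in 1 or more samples. For these low genes the drop at 3 h depends on the added count in the log2 values. On the log2(CPM + 5) scale the rule held for 17 genes. A member at the median control level of 17.3 CPM could not pass on that scale, even without any reads in the OS samples. The count of 17 thus cannot tell how far the drop of the low genes rests on few reads.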

How the data were processed

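RNA of 27 leaf samples was sequenced, and per the labels, and as stated by the authors in their methods, reads were trimmed with Cutadapt 2.5, aligned with STAR 2.5.3a and counted per gene with HTSeq 0.9.1 on the TAIR10 genome, before the authors deposited log2 CPM values (TMM-normalized, with a prior count of 1, batch-corrected). The strand setting of the counting is not given in the sources used here, so that reads of overlapping genes on opposite strands cannot be told apart. One W sample at 3 h had been removed by the authors as an outlier, and each sample pooled plants of one treatment. A second deposited table holds the fold changes and adjusted p of the authors' own comparisons and was not used.

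The methods name a correction by replicate number. In the values it was one of replicates 1 and 2 against 3 and 4, with the W samples at 3 h, which the labels number 1 to 3, treated as 1, 3 and 4. The block used the numbers of the labels, and the other numbering was run as an alternative. Whole reads could be recovered for all 18899 genes within 0.02 reads. The 27 libraries held 22.48 M to 31.34 M reads (median 29.27 M).

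Groups came from the labels. CPM in the text are 2 to the power of the deposited log2 values. The 93 members, the classes, the family lists and the markers were chosen with earlier results of these data known. Values in each sample are given for the 12 members with the largest mean drop, the 10 with the highest control level, the 10 with the smallest adjusted p against W at 24 h and the highest in each family list. Group means are given for the 3 nearest the limit on each side, the 3 at either end with W at 3 h and the 3 that differed most between secretions. Other genes named were chosen after their values were seen.

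Comparisons at 24 h were tested with limma 3.58.1 in R 4.3.3 over all genes and all 27 samples, with the replicate number as a block of 4 levels, moderated statistics and Benjamini-Hochberg adjustment over all 18899 genes, at an adjusted p under 0.05, and against control also a log2 difference of over 1. The code was tested on simulated data. Among the 24 h groups, same-numbered samples deviated together (correlations of 0.56 to 0.81 for each pair of groups), whereas those of control and 24 h groups did not (-0.65 to -0.29). The p-values measure the spread between pooled samples. Alternatives were no block, other batch terms, the 2 groups alone, log2(CPM + 5), a filter on the mean, voom on the recovered reads, equal sample medians and leaving out each replicate. Positions and sequences are from the RefSeq annotation of TAIR10.1.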

Additional observations from a re-analysis of the deposited data

Results flagged for a closer look

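For 6 of the 216 sets of 4 samples examined, a single sample stood apart from the other 3 by more than Dixon's critical value, and chance alone gives about 1 in 20 such sets. AT4G12980 had 0.997 CPM in replicate 1 with Pb OS at 3 h, below 3.15 to 3.36 CPM in the others. HAT3 had 0.812 CPM in replicate 4 with Pb OS at 3 h, below 1.44 to 1.62 CPM. GSTU20 had 12.4 CPM in replicate 2 with Sl OS at 3 h, below 64.1 to 84.1 CPM. That sample also had the lowest median over all members.

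At 24 h, SBT1.6 had 169.6 CPM in replicate 3 with W, above 118 to 121 CPM in the others. Replicate 3 with Sl OS stood apart in a pair of genes in opposite directions. CRR3 had 43.4 CPM there, below 67.2 to 71.2 CPM, and IPMI1 had 185 CPM, above 90.4 to 102 CPM.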

How the results depend on the processing

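The number of genes under the rule was 17 with log2(CPM + 5), 90 without the batch correction (87 of them members) and 73 to 126 when 1 sample was left out, lowest without replicate 3 and highest without replicate 2 of Pb OS at 3 h. In every leave-one-out setting 25 of the 93 members were kept, and 7 under all 19 settings. Those 19 include log2(CPM + 5), a scale on which members of low control level could not pass whatever their OS values.

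At 24 h the fits of Pb OS against W and against Sl OS called 0 members under each alternative. For Sl OS against W the count was 0 in each fit of all 27 samples, in that of both groups alone and with 1 of the 27 left out. In the fit of the 12 samples at 24 h, chosen after seeing the data, it was 3, and 0 to 3 when a sample was left out of it. Against control the counts were 3 for W, 6 for Pb OS and 7 for Sl OS with a difference between replicate sets fitted at each time, also chosen after seeing the data. Fits on no more than the pair of groups at issue gave 0 in each case. The counts were 2 for W and 4 for Pb OS with voom, 2 for W with log2(CPM + 5), and 1 for Pb OS with the filter on the mean. Leaving out 1 sample gave 0 to 1 for W, 0 to 2 for Pb OS and 0 to 6 for Sl OS. The cause of these shifts was not tested.

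Without the replicate block the counts were 0, 0 and 0 between treatments and 1, 2 and 5 against control, so the block moved no count by over 1.5 times. With the W samples at 3 h numbered 1, 3 and 4 in the block, the counts were the same 0, 0 and 0, and 1, 2 and 5. The median difference of the members from W was -0.05 with Pb OS and -0.16 with Sl OS. The block could not change these medians, since each 24 h group holds every replicate number once. In that order they lay between -0.13 and 0.0023 and between -0.27 and -0.10 when a sample was left out.

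Depth limits the lowest genes, since 21 members had fewer than 10 reads in a sample.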
